A study of Homo sapiens with 8 samples.

Results

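The 54 genes described here make the cornified envelope and the other products of terminal keratinocyte differentiation. They were taken as a fixed list of symbols, of the 56638 symbols in each of the deposited count tables, and each was found in both. The list holds 6 envelope scaffold proteins, 6 small proline-rich proteins, 5 crosslinking and barrier lipid enzymes, 10 desmosomal proteins, 5 suprabasal and stress keratins, 9 calcium-binding proteins of the S100 and calmodulin-like type, 9 protease inhibitors and 4 other secreted, membrane and carrier proteins.

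The RNA came from SCC25, an established line of human head and neck squamous cell carcinoma, grown with 10% fetal bovine serum and 400 ng/ml hydrocortisone, and was sequenced in 8 libraries. The short-term arm compared cells given a non-targeting siRNA (siRNA control) with cells given a pool of siRNAs against the ETS family transcription factor ETS1 (ETS1 siRNA). The long-term arm compared cells with a stable non-targeting hairpin (shCON) with cells carrying 1 stable hairpin against ETS1 (shETS1), both infected with lentivirus and selected with 2 µg/ml puromycin. Each of the 4 groups had 2 replicates, and the arms stand for 1 cell line and, in the long-term arm, 1 hairpin.

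In stratified epithelia, cells that leave the basal layer replace their plasma membrane with the cornified envelope, a shell of proteins joined by transglutaminases. Scaffold proteins such as involucrin, envoplakin and periplakin are laid down first, small proline-rich and S100 proteins are crosslinked onto them, and ceramides are attached on the outside by way of lipoxygenase products. Desmosomes and keratin filaments hold the cells together, and protease inhibitors restrain the enzymes that shed them. Carcinoma cells in culture usually carry out only part of this program.

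Total counts ranged from 15954616 to 25953213 per library. ETS1 fell from 288 and 248 CPM (counts in 1000000 of the scaled library size) to 17.4 and 13.2 after siRNA, and from 82.3 and 72.1 CPM to 9.76 and 11.1 after the hairpin. The tables were scaled separately, so that levels were compared within an arm. They also differed in content: 5 structural RNAs took at most 0.00339% of the counts in the siRNA libraries, 5.61% and 6.63% in shCON, and 12.3% and 9.64% in shETS1. Mitochondrial genes had 0% of the counts in the siRNA libraries and 0.508% to 0.820% in the hairpin libraries. The part of either in the results was not tested. All 8 squamous epithelial markers checked were detected. Their summed level was 13103 to 16771 CPM in siRNA control, 20232 to 22528 in the knockdown, 12437 to 12625 in shCON and 20471 to 20540 in shETS1. The sum was mostly keratin: after the hairpin KRT5, KRT14, KRT17 and PERP rose by 0.65 to 1.33 on the log2 scale, TP63 fell by 0.40, EPCAM by 0.60 and SFN by 0.17, and CDH1 was not called (log2 fold change 0.0084, adjusted p 0.93). Marker sums of hematopoietic, endothelial and melanocytic cells stayed at or under 4.01 CPM, with PECAM1 at 0 throughout.

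Many genes of this program hold a binding site for AP-1, the FOS-JUN dimer, close to their start. The 250 bases before the start were therefore searched for the AP-1 heptamer TGAGTCA on both strands (TGACTCA on the opposite one), in RefSeq promoters of GRCh38.p14, which matched 38 of the 54 genes. The heptamer stood in 10 of 45 windows of these genes (22.2%) and in 4.2% of 35116 windows of all genes. Shown are windows of genes whose level changed after the hairpin, 5′ to 3′ on the strand of the gene, with each copy of the heptamer in capitals. They are IVL at chr1:152908296-152908545 on the plus strand, SBSN at chr19:35528312-35528561 on the minus strand, SPRR1A at chr1:152983831-152984080 and SPRR1B at chr1:153030953-153031202, both on the plus strand, and 47 bases around the heptamer of SCEL, on the plus strand within chr13:77535456-77535705.
IVL: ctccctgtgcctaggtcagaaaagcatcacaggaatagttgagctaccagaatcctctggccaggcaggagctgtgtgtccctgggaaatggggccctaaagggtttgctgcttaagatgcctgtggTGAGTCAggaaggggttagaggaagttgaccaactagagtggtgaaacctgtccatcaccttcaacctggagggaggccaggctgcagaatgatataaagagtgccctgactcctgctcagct
SBSN: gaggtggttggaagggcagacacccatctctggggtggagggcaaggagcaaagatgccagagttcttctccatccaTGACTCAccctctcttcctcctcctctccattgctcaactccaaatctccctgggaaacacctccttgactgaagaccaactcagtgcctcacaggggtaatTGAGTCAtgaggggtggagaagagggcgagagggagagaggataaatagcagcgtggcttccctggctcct
SPRR1A: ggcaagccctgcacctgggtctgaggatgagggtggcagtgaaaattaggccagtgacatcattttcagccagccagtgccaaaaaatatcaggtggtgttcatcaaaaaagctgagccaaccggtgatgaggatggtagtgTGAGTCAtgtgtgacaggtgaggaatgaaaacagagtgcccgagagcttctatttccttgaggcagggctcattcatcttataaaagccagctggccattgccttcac
SPRR1B: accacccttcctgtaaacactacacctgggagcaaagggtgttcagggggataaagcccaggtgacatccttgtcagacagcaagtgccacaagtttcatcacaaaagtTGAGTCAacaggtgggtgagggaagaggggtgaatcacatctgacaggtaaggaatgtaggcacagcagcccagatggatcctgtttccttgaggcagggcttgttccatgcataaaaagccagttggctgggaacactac
SCEL: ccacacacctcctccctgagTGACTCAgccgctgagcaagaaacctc
The heptamer began 123 bases before the start in IVL, 108 in SPRR1A, 141 in SPRR1B and 49 in SCEL, and SBSN held copies at 173 and 71 bases. It stood in promoters of genes that rose after the hairpin (IVL, SBSN, SCEL and S100A2, 4 of 16 windows of such genes) and in promoters of genes that fell (SPRR1A, SPRR1B and EMP1, 3 of 19). The core AGGAAG, to which ETS proteins can bind, stood in 8 of the 16 windows of genes that rose (50%), in 8 of the 19 windows of genes that fell (42.1%), and in 28.7% of all windows. In the promoter of IVL 1 copy of AGGAAG overlaps the heptamer. A match is a run of letters and was not tested for binding.

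After the stable hairpin, genes of the list moved in both directions by large amounts. DSG1, KRT1, KRT16, LY6D and SLPI rose 3.57-fold to 10.6-fold, while ALOXE3, LCN2, CRABP2 and S100A11 fell 2.17-fold to 9.42-fold. Of the 54 genes 47 had enough counts to be tested, and 24 were called higher and 17 lower at an adjusted p under 0.1 in edgeR's quasi-likelihood test. Of all 16481 genes tested, 60.6% were called, 29.7% higher and 30.9% lower, so that a call by itself set few genes apart. At least 2-fold changes were less common, with 11 of the list higher and 7 lower, beside 6.77% and 7.78% of all genes. The groups did not overlap for 42 of the 47, beside 76.6% of all genes, and the median log2 fold change of the 47 was 0.20, beside 0.00066 for all genes. DESeq2 was run without the count filter, on every gene with a count. Its medians were 0.05 for the list and 0.05 for all genes, and edgeR with no filter gave 0.05 and 0.06. With library size alone, which moved the median of all genes to -0.12, the list had 19 genes called higher and 19 lower. Of all genes 9893 were called in that fit. In bulk RNA a smaller share of cells with a transcript and less of it per cell cannot be told apart. The structural RNAs and 7 of the 8 squamous markers given above, 4 upwards and 3 downwards, moved with the hairpin as well.

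After siRNA few genes of the list were called. Of 40 genes tested, 3 were called higher (TGM2, PKP3 and CRABP2) and 0 lower, 11 had an unadjusted p under 0.05 (2721 of all 14742 genes tested did), and 3.41% of all genes tested were called (1.13% higher, 2.27% lower). DESeq2 called 5, 4 higher and 1 lower, beside 777 of all genes. The median log2 fold change of the 40 was 0.19, beside 0.0018 for all genes. The groups did not overlap for 15 of the 40, beside 51.9% of all genes. Calls of at least 2-fold numbered 0 in either direction, beside 0.183% of all genes higher and 0.651% lower. The 3 calls did not stand without siRNA control replicate 1, when 0 genes of the list were called.

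**Figure D1:**
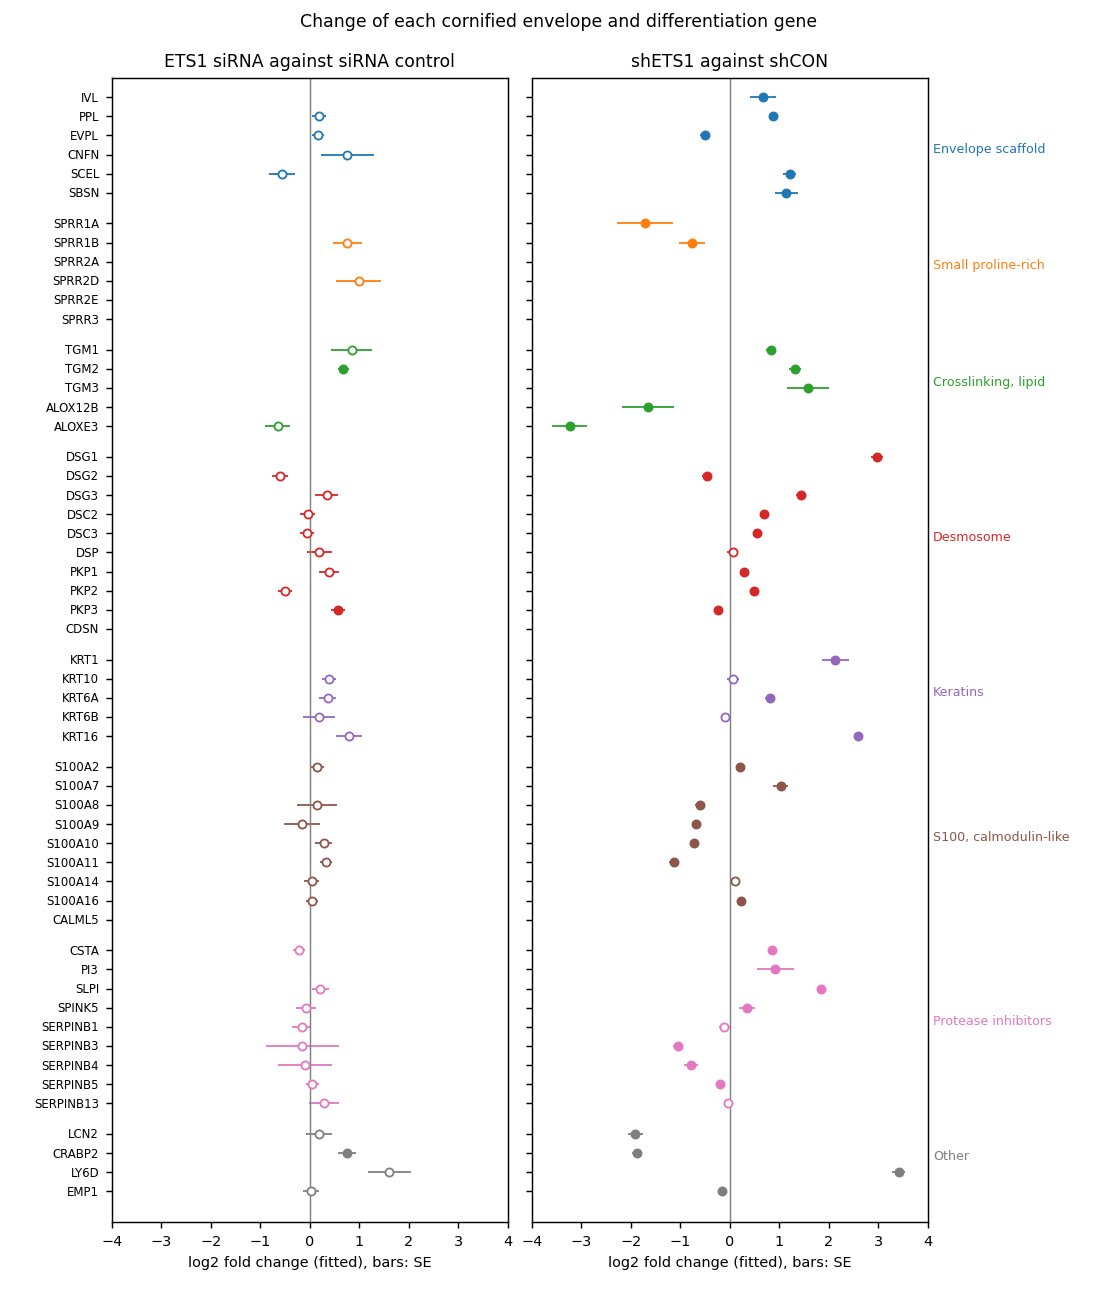
Fitted log2 fold changes of the 54 genes, grouped by role, after ETS1 siRNA (left) and after the stable hairpin (right). Bars are standard errors, filled points were called at an adjusted p under 0.1, open points were tested and not called, and genes with no point had too few counts to be tested. On the right points run from -3.24 for ALOXE3 to 3.41 for LY6D, and on the left from -0.65 for ALOXE3 to 1.61 for LY6D.

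The counts of calls by role show no single direction for the list. After the hairpin, scaffold proteins were called higher in 4 of 5 tested, desmosomal proteins in 6 of 9 and keratins in 3 of 5. Both small proline-rich proteins that could be tested were called lower. SPRR1A entered the test only through its shCON libraries, the group where it was higher. Of the S100 group 4 of 8 were called lower and 3 higher. Of all genes tested, 29.7% were called higher and 30.9% lower. The median log2 fold change was 0.88 for the scaffold, 0.82 for the enzymes, 0.81 for the keratins, 0.49 for the desmosomal proteins, -0.03 for the protease inhibitors, -0.26 for the S100 group, -1.02 for the 4 other proteins and -1.24 for the small proline-rich proteins tested.

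**Figure D2:**
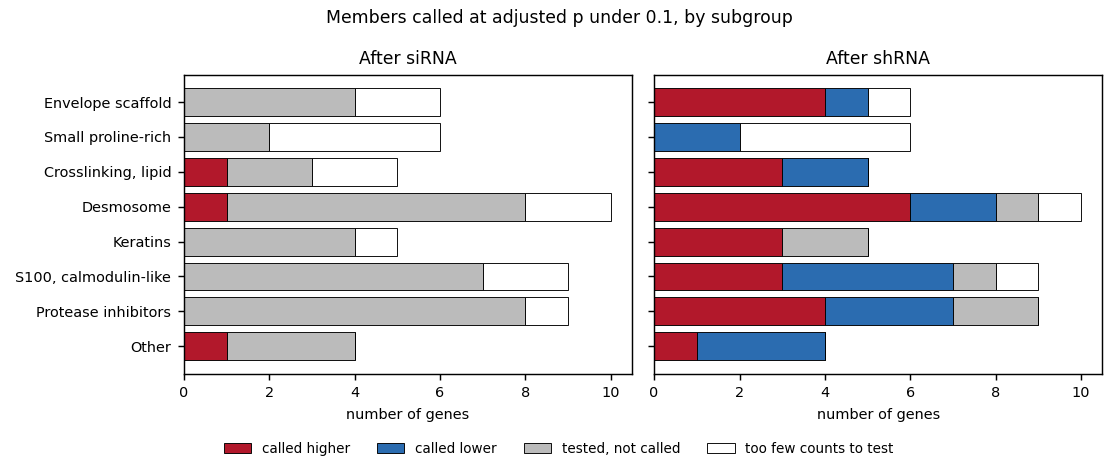
Number of genes called higher, called lower, tested and not called, and too low to test, in each of the 8 roles, after siRNA (left) and after the hairpin (right). On the left 3 genes are called, all higher, and on the right 24 are called higher and 17 lower.

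The envelope scaffold was the first role examined. IVL, involucrin, the earliest scaffold protein, is on chromosome 1 from 152881022 to 152884362 (GRCh37, plus strand). Its level was 1.31 and 1.58 CPM in shCON and 1.92 and 2.66 in shETS1, a low level that rose 1.58-fold (log2 fold change 0.66, SE 0.26, adjusted p 0.038). Periplakin, PPL, a plakin that links the envelope to keratin filaments and desmosomes, stood at 55.9 and 51.3 CPM in shCON and at 98.8 and 98.5 in shETS1, and rose 1.84-fold (log2 fold change 0.88, SE 0.08, adjusted p 3.7e-08). EVPL, envoplakin, its partner in the same dimer, went the other way, from 31.7 and 26.7 CPM to 20.7 and 20.4 (log2 fold change -0.51, SE 0.10, adjusted p 0.00041). Both replicates of each group lay on their own side for these 3 genes, as they did for 76.6% of all genes tested.

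Sciellin, SCEL, an envelope precursor, was at 5.77 and 5.16 CPM in shCON and at 12.7 and 12.6 in shETS1, and rose 2.32-fold (log2 fold change 1.21, SE 0.13, adjusted p 5.5e-07). Suprabasin, SBSN, a secreted protein of suprabasal layers, was at 1.31 and 1.73 CPM in shCON and at 3.62 and 3.13 in shETS1, a 2.2-fold rise (log2 fold change 1.14, SE 0.23, adjusted p 0.00045). Cornifelin, CNFN, had 6 to 16 counts in the hairpin libraries and could not be tested there. After siRNA none of the 4 scaffold genes with enough counts was called, and SCEL went from 3.32 and 3.49 CPM to 2.56 and 2.07 (log2 fold change -0.56, SE 0.26, adjusted p 0.30).

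The small proline-rich proteins, which bridge other envelope proteins as crosslinkers, were near the detection limit. SPRR1B, on chromosome 1 from 153003679 to 153005376, had the most counts of them in the hairpin libraries, at 2.19 and 2.47 CPM in shCON and 1.09 and 1.63 in shETS1, a 1.70-fold fall (log2 fold change -0.77, SE 0.26, adjusted p 0.019). This fall was not called by DESeq2 or without shETS1 replicate 1, and the adjusted p ranged from 0.0045 to 0.18 over its alternatives. In the short-term arm SPRR1B was at 1.66 and 1.75 CPM in siRNA control and 3.32 and 2.46 in ETS1 siRNA, which was not called (log2 fold change 0.76, SE 0.30, adjusted p 0.23). SPRR1A had 10 and 22 counts in shCON and 5 and 4 in shETS1, and was called lower (log2 fold change -1.72, SE 0.57, adjusted p 0.017). It had enough counts to be tested only through shCON, so that its direction is weakly supported.

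SPRR2D had 6 and 5 counts in shCON and 0 in both shETS1 libraries, at least 1.73-fold lower when 3 counts per library are taken as the floor, and it was too low to test. In the siRNA table it had 35 and 10 counts in siRNA control and 33 and 59 in ETS1 siRNA. SPRR2A had 0 or 1 count in every hairpin library and 5 to 11 in every siRNA library. SPRR3 had 6 and 4 counts in shCON, 0 and 2 in shETS1 and 0 in all siRNA libraries, and SPRR2E had at most 3 anywhere. Of the 50-base stretches of SPRR2A, 34.4% also occur in another gene of the tables, and 19.4% of those of SPRR2D, so that reads may be split between copies.

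Among the crosslinking enzymes, TGM1, the membrane-bound transglutaminase of keratinocytes, was at 21.6 and 21.5 CPM in shCON and at 40.6 and 35.9 in shETS1, a 1.77-fold rise (log2 fold change 0.82, SE 0.09, adjusted p 9.2e-07). In the siRNA table its replicates were far apart, at 6.10 and 14.9 CPM in siRNA control and at 25 and 12.4 in ETS1 siRNA, so that the groups overlapped (log2 fold change 0.84, SE 0.42, adjusted p 0.33). Leaving out 1 library moved the siRNA value to between 0.26 and 1.61, and it was called without siRNA control replicate 2.

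TGM2, tissue transglutaminase, was the gene of the list called higher after both knockdowns. It was at 36.2 and 38.0 CPM in siRNA control and 57.4 and 60.8 in ETS1 siRNA (log2 fold change 0.67, SE 0.12, adjusted p 0.038). Both shCON libraries had 6.44 CPM and the shETS1 libraries 16.2 and 15.9, a 2.48-fold rise (log2 fold change 1.31, SE 0.12, adjusted p 7.7e-08). The siRNA call was lost with a block for replicate number and without siRNA control replicate 1. RPRD1B overlaps TGM2 on the opposite strand, and 4.51% of the 50-base stretches of TGM2 are shared. TGM3, the transglutaminase of later layers, had 18 and 6 counts in shCON and 26 and 42 in shETS1 and was called higher (log2 fold change 1.57, SE 0.42, adjusted p 0.0045).

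The lipoxygenases of the barrier lipid pathway fell. ALOXE3, which acts on the product of ALOX12B, is on chromosome 17 from 7999218 to 8022365, on the minus strand. It went from 2.51 and 2.27 CPM in shCON to 0.261 and 0.238 in shETS1, or from 63 and 59 counts to 6 and 6, a 9.42-fold fall (log2 fold change -3.24, SE 0.36, adjusted p 6.8e-07). ALOX12B had 13 and 21 counts in shCON and 5 and 5 in shETS1 (log2 fold change -1.66, SE 0.52, adjusted p 0.012). Both genes had enough counts to be tested only through shCON, the group where they were higher. After siRNA ALOXE3 was at 4.23 and 5.74 CPM in the control and 3.49 and 2.86 in the knockdown, groups that did not overlap but that were not called apart (log2 fold change -0.65, SE 0.25, adjusted p 0.23).

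Desmosomal cadherins gave the largest rise among the junction genes. DSG1, desmoglein 1, the cadherin of the upper layers, is on chromosome 18 from 28898123 to 28939209, on the plus strand. It was at 4.53 and 3.82 CPM in shCON and at 32.5 in both shETS1 libraries, a 7.79-fold rise (log2 fold change 2.96, SE 0.12, adjusted p 2.3e-12). In the siRNA table it had 4 or 5 counts in every library and could not be tested.

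DSG3, desmoglein 3, the cadherin of the lower layers and of mucosa, was at 692 and 740.0 CPM in shCON and at 1977 and 1885 in shETS1, a 2.70-fold rise (log2 fold change 1.43, SE 0.09, adjusted p 3.8e-10). After siRNA its values of 334 and 211 CPM overlapped the control values of 180.4 and 249. DSG2, the desmoglein of simple and basal epithelium, fell from 450.5 and 428 CPM in shCON to 292 and 343 in shETS1 (log2 fold change -0.47, SE 0.08, adjusted p 0.00016). In the siRNA arm DSG2 was at 617 and 581 CPM in the control and 449 and 338 in the knockdown, which missed the threshold (log2 fold change -0.61, SE 0.15, adjusted p 0.11). The change was past it under 7 of 13 alternatives. The 7 include a crossed pairing of replicates that was added after the data were seen.

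The desmocollins rose less. DSC2 rose by 0.69 on the log2 scale after the hairpin (SE 0.08, adjusted p 6.9e-07), from 149 and 139.7 CPM to 221 and 245, and DSC3 by 0.55 (SE 0.08, adjusted p 2.4e-05), from 631 and 619 CPM to 867 and 963. The 5 cadherin genes of the list lie together on chromosome 18 from 28569331 to 29128971 in the order DSC3, DSC2, DSG1, DSG3, DSG2. Of the 5, 4 were called higher after the hairpin, and DSG2 at the end of the row was called lower. DSC1, between DSC2 and DSG1, and DSG4, between DSG1 and DSG3, are outside the list. DSC1 was called higher as well (log2 fold change 1.38, SE 0.29, adjusted p 0.00068), and DSG4 had too few counts to be tested. Among all genes tested, 29.7% were called higher and 30.9% lower.

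Among the cytoplasmic plaque proteins, desmoplakin, DSP, which ties the plaque to keratin, was at 1203 and 986 CPM in shCON and 1044 and 1229 in shETS1 and was not called (log2 fold change 0.05, SE 0.10, adjusted p 0.68). The plakophilins, armadillo proteins that cluster the cadherins, split. PKP1 and PKP2 rose after the hairpin by 0.29 (SE 0.08, adjusted p 0.0061) and 0.49 (SE 0.08, adjusted p 5.0e-05) on the log2 scale.

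PKP3, plakophilin 3, was called in opposite directions in the arms. It was at 199 and 234 CPM in siRNA control and 336 and 305 in ETS1 siRNA (log2 fold change 0.57, SE 0.14, adjusted p 0.096), and at 109.9 and 116 in shCON and 98.3 and 92.7 in shETS1 (log2 fold change -0.24, SE 0.07, adjusted p 0.010). The rise after siRNA was not called with library size alone, with a block for replicate number or at an adjusted p under 0.05. It was also not called without siRNA control replicate 1 or replicate 2. The fall after the hairpin was not called without shCON replicate 2. Corneodesmosin, CDSN, the glue of the outermost layers, had at most 3 counts in every library.

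Of the 5 keratins 3 were called higher after the hairpin and 0 lower, beside 29.7% and 30.9% of all genes tested. KRT16, a keratin of wounded and hyperproliferative epidermis on chromosome 17 from 39766030 to 39772151, was at 226 and 236 CPM in shCON and at 1509 and 1281 in shETS1, a 6.04-fold rise (log2 fold change 2.59, SE 0.09, adjusted p 6.0e-13). In the siRNA arm the control was at 95.1 and 166 CPM and the knockdown at 259 and 192, without a call (log2 fold change 0.79, SE 0.26, adjusted p 0.17). Of its 50-base stretches 15.1% occur in other genes of the tables.

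KRT6A, a partner of KRT16, had the highest level per length of the list in every group, with means of 1188 CPM per kb of exon in shCON and 2083 in shETS1. It rose from 3497 and 3455 CPM to 6285 and 5902, or 1.75-fold (log2 fold change 0.81, SE 0.10, adjusted p 1.5e-06), whereas its near copy KRT6B, at 312 and 300.3 CPM in shCON and 300.3 and 269 in shETS1, was not called (log2 fold change -0.11, SE 0.08, adjusted p 0.26). Their values are uncertain, since 32.2% of the 50-base stretches of KRT6A and 46.6% of those of KRT6B are shared, most of them with KRT6C.

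KRT1, the keratin with which KRT10 pairs in suprabasal epidermis, had 28 and 16 counts in shCON and 82 and 101 in shETS1, a 4.38-fold rise (log2 fold change 2.13, SE 0.27, adjusted p 3.1e-06), and 1 count in all siRNA libraries together. KRT10 was more abundant and was not called, at 20.6 and 22.0 CPM in shCON and 19.0 and 25.3 in shETS1 (log2 fold change 0.06, SE 0.12, adjusted p 0.70).

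The S100 genes went both ways although they lie near each other. S100A11, a transglutaminase substrate on chromosome 1 from 152004982 to 152020383, was at 284 and 288 CPM in shCON and 113 and 149.9 in shETS1, a 2.17-fold fall (log2 fold change -1.12, SE 0.10, adjusted p 5.1e-08). S100A10, the annexin A2 partner, fell from 233 and 245 CPM to 133 and 155 (log2 fold change -0.73, SE 0.08, adjusted p 6.6e-07). After siRNA both were above the control mean and not called, with S100A11 at 837 and 871 CPM in the control and 992 and 1154 in the knockdown.

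S100A8 and S100A9, which form calprotectin, an inflammatory heterodimer, fell together after the hairpin. S100A8 went from 28.1 and 30.4 CPM to 18.3 and 20.1 (log2 fold change -0.61, SE 0.10, adjusted p 4.5e-05) and S100A9 from 139 and 141 CPM to 88.8 and 84.9 (log2 fold change -0.69, SE 0.07, adjusted p 3.6e-07). S100A7, psoriasin, an antimicrobial protein, went the other way, from 4.14 and 4.89 CPM to 9.76 and 8.68 (log2 fold change 1.03, SE 0.15, adjusted p 1.7e-05), with 15.8% of its 50-base stretches shared with other genes. In the siRNA libraries S100A7 had 0 to 5 counts each.

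S100A2 and S100A16 were called higher with small changes of 0.20 (SE 0.08, adjusted p 0.054) and 0.22 (SE 0.08, adjusted p 0.019) after the hairpin. The call of S100A16 was lost with library size alone, with all 8 libraries in one fit and without shCON replicate 1. S100A14 was not called (log2 fold change 0.10, SE 0.07, adjusted p 0.26), and CALML5, a calmodulin-like protein of late differentiation, had at most 3 counts in every library. The 15 genes of the list in the epidermal differentiation complex and its S100 flanks lie on chromosome 1 from 151955391 to 153589462. They gave 11 tests, with 4 called higher, 6 lower and 1 not called, beside 29.7% of all genes called higher and 30.9% lower.

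Of the 9 protease inhibitors 4 were called higher after the hairpin and 3 lower, beside 29.7% and 30.9% of all genes tested. SLPI, the secretory leukocyte protease inhibitor on chromosome 20 from 43880880 to 43883205, was at 72.9 and 77.9 CPM in shCON and at 289.7 and 249 in shETS1, a 3.57-fold rise (log2 fold change 1.84, SE 0.08, adjusted p 1.1e-11). CSTA, cystatin A, a cysteine protease inhibitor that is itself an envelope component, was at 152 and 172 CPM in shCON and at 305 and 280.4 in shETS1, a 1.81-fold rise (log2 fold change 0.85, SE 0.08, adjusted p 1.1e-07). Neither was called after siRNA, where SLPI was at 11.2 and 14.9 CPM in the control and 15.4 and 14.8 in the knockdown.

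PI3, elafin, an elastase inhibitor and transglutaminase substrate, had 10 and 19 counts in shCON and 24 and 28 in shETS1 (log2 fold change 0.92, SE 0.38, adjusted p 0.048). SPINK5, the inhibitor of skin kallikreins, was called higher by 0.34 on the log2 scale (SE 0.16, adjusted p 0.082). The SPINK5 values lay close together, at 4.89 and 4.78 CPM in shCON and 6.71 and 5.55 in shETS1.

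The squamous cell carcinoma antigens SERPINB3 and SERPINB4, clade B serpins, fell. SERPINB3 was at 25.2 and 27.4 CPM in shCON and 13.2 and 12.2 in shETS1 (log2 fold change -1.05, SE 0.10, adjusted p 2.0e-07), and SERPINB4 at 8.79 and 8.56 CPM in shCON and 5.14 and 4.92 in shETS1 (log2 fold change -0.79, SE 0.14, adjusted p 0.00014). They may share reads, since 53.7% of the 50-base stretches of SERPINB3 and 20.5% of those of SERPINB4 occur in other genes of the tables, most of them in SERPINB11 on the opposite strand and in SERPINB3. SERPINB5, maspin, was called lower by a small amount (log2 fold change -0.19, SE 0.08, adjusted p 0.045), and SERPINB13 was not called (log2 fold change -0.03, SE 0.09, adjusted p 0.80). These 4 serpin genes lie on chromosome 18 from 61144191 to 61329127, with 3 called lower and 0 higher, beside 30.9% and 29.7% of all genes tested. SERPINB1, on another chromosome, was not called (log2 fold change -0.12, SE 0.11, adjusted p 0.40).

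Of the remaining genes LY6D, a GPI-anchored surface protein of stratified squamous cells, rose most. It was at 3.10 and 3.89 CPM in shCON and at 39.9 and 34.6 in shETS1, a 10.6-fold rise (log2 fold change 3.41, SE 0.13, adjusted p 1.2e-12). In the siRNA arm it was at 1.41 and 3.99 CPM in the control and 10.0 and 6.16 in the knockdown, groups that did not overlap (log2 fold change 1.61, SE 0.43, adjusted p 0.12). That change missed the threshold and was past it under 7 of 13 alternatives. The 7 include a crossed pairing of replicates that was added after the data were seen.

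CRABP2, the cellular retinoic acid-binding protein on chromosome 1 from 156669398 to 156675608, went in opposite directions in the arms. It was at 38.8 and 55.9 CPM in siRNA control and 72.6 and 86.5 in ETS1 siRNA (log2 fold change 0.75, SE 0.18, adjusted p 0.097). It was at 47.1 and 51.8 CPM in shCON and 14.2 and 12.7 in shETS1, a 3.67-fold fall (log2 fold change -1.88, SE 0.10, adjusted p 5.6e-11). The rise after siRNA was not called with library size alone, with a block for replicate number or at an adjusted p under 0.05. It was also not called without siRNA control replicate 1 or without ETS1 siRNA replicate 2.

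LCN2, lipocalin 2, which binds bacterial siderophores, fell 3.76-fold after the hairpin, from 10.9 and 10.6 CPM to 3.09 and 2.66 (log2 fold change -1.91, SE 0.15, adjusted p 1.4e-08). After siRNA its groups overlapped, at 18.7 and 28.9 CPM in the control and 33.6 and 20.8 in the knockdown. EMP1, an epithelial membrane protein, was called lower by a small amount after the hairpin (log2 fold change -0.16, SE 0.07, adjusted p 0.072).

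**Figure D3:**
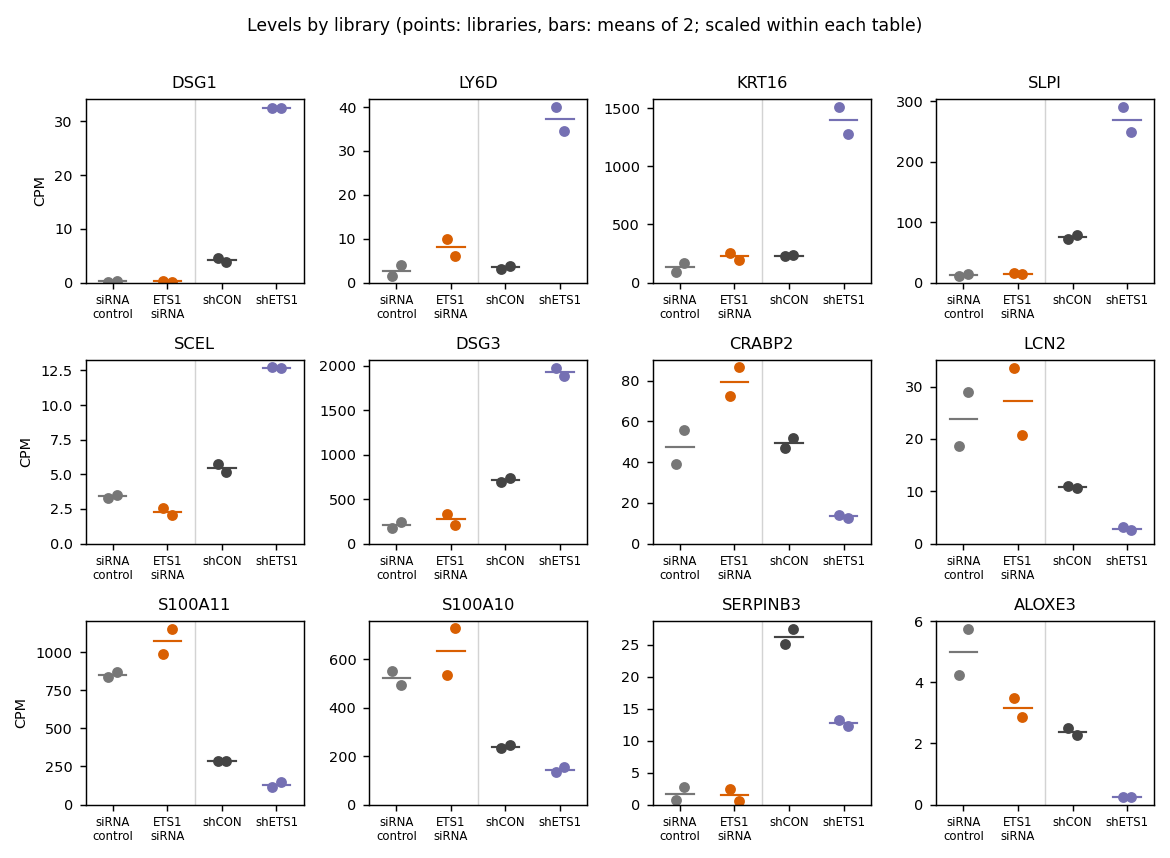
Levels of 12 of the genes in CPM on linear axes, 1 point per library and a bar at the mean of the 2 replicates, in siRNA control, ETS1 siRNA, shCON and shETS1. The line in each panel separates the tables, which were scaled separately. In all 12 panels the shETS1 points lie apart from the shCON points, above them in the 6 panels from DSG1 to DSG3 and below them in the 6 from CRABP2 to ALOXE3. All 12 were picked from genes called after the hairpin, so that this separation followed from the choice. The groups did not overlap for 76.6% of all genes tested.

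The knockdowns were then compared with each other, as the change after the hairpin minus the change after siRNA in 1 fit of all 8 libraries. Method, duration and count table differed together between the arms, so that their parts in a difference cannot be told apart. Of 48 genes of the list tested, 23 differed, 14 with the hairpin change higher and 9 with it lower, beside 34.8% of all 17190 genes tested (15.1% higher, 19.7% lower). In SPRR2D and S100A7, 2 of the 23, a group was at or under the floor of 3 counts per library, and their fitted differences are not given. The other 21 had 13 higher and 8 lower, and DSG1 and SBSN, among the 13, could not be tested after siRNA. Differences of at least 2-fold were called in 9 genes upwards and 7 downwards, beside 5.06% and 8.21% of all genes. The 9 include DSG1, SBSN and S100A7, and the 7 include SPRR2D.

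DSG1 and SBSN entered this fit through their hairpin libraries and could not be tested after siRNA, so that their fitted differences, 2.84 for DSG1 and 1.61 for SBSN, are given as values only. Of the genes tested in both arms KRT16 differed most upwards (1.78, SE 0.31, adjusted p 0.0020), followed by LY6D (1.77, SE 0.49, adjusted p 0.023) and SCEL (1.76, SE 0.24, adjusted p 0.00050). CRABP2 differed most downwards (-2.65, SE 0.23, adjusted p 4.9e-05), before ALOXE3 (-2.60, SE 0.42, adjusted p 0.0012) and LCN2 (-2.12, SE 0.36, adjusted p 0.0018). The difference in LY6D was not called with a block for replicate number or without siRNA control replicate 2. For TGM1 the difference was -0.04 (SE 0.49, adjusted p 0.98).

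Of the 38 genes of the list tested in both arms, 3 were called in both, beside 2.81% of the genes tested in both arms in all. TGM2 was higher in both and PKP3 and CRABP2 were higher after siRNA and lower after the hairpin. The difference itself was past the threshold for all 3, at 0.62 for TGM2 (SE 0.14, adjusted p 0.0080), -0.83 for PKP3 (SE 0.15, adjusted p 0.0022) and -2.65 for CRABP2.

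**Figure D4:**
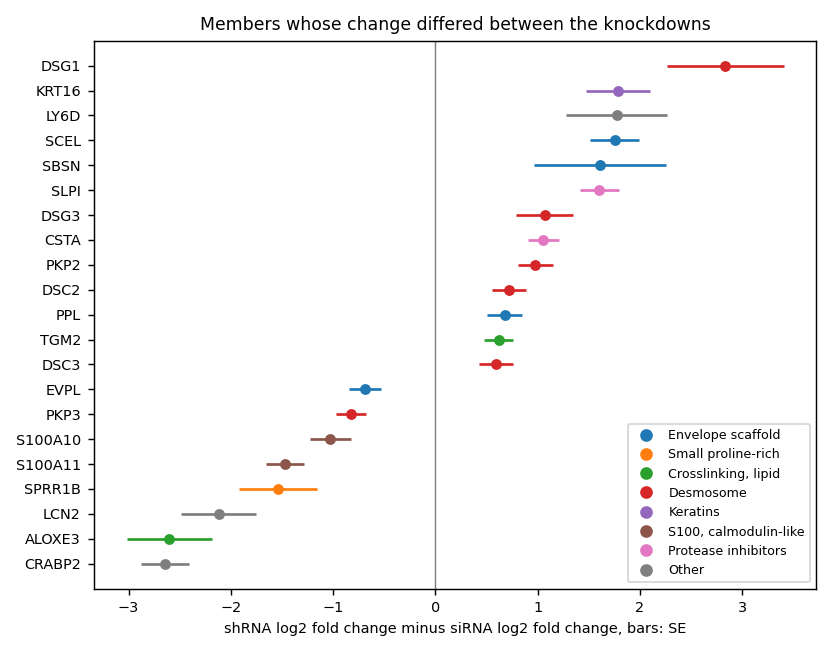
Difference between the knockdowns, as the log2 fold change after the hairpin minus that after siRNA, for the 21 genes with a called difference and no group at the floor, coloured by role. Bars are standard errors. The differences run from -2.65 for CRABP2 to 2.84 for DSG1, with 13 above 0 and 8 below. DSG1 and SBSN are among them although their change after siRNA could not be tested.

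In the siRNA arm the replicates of these genes lay further apart than those of most genes. The median absolute log2 ratio between replicates in siRNA control was 0.32 for the list and 0.15 for all genes. ETS1 siRNA gave 0.35 and 0.19, shCON 0.10 and 0.11, and shETS1 0.13 and 0.13. In siRNA control replicate 2 exceeded replicate 1 by at least 0.5 on the log2 scale, and in ETS1 siRNA fell short of it by at least 0.5, in TGM1, KRT6B, S100A8, S100A9, SERPINB3, LCN2 and LY6D. These 7 were 17.5% of the 40 genes tested, beside 1.8% of all genes tested, and the opposite pattern was seen in 0 of the 40 and in 1.11% of all. The limit of 0.5 was chosen after the values were seen. SERPINB3, for example, had 14 and 43 counts in siRNA control and 43 and 11 in ETS1 siRNA, and the fold changes of these genes after siRNA are correspondingly imprecise.

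**Figure D5:**
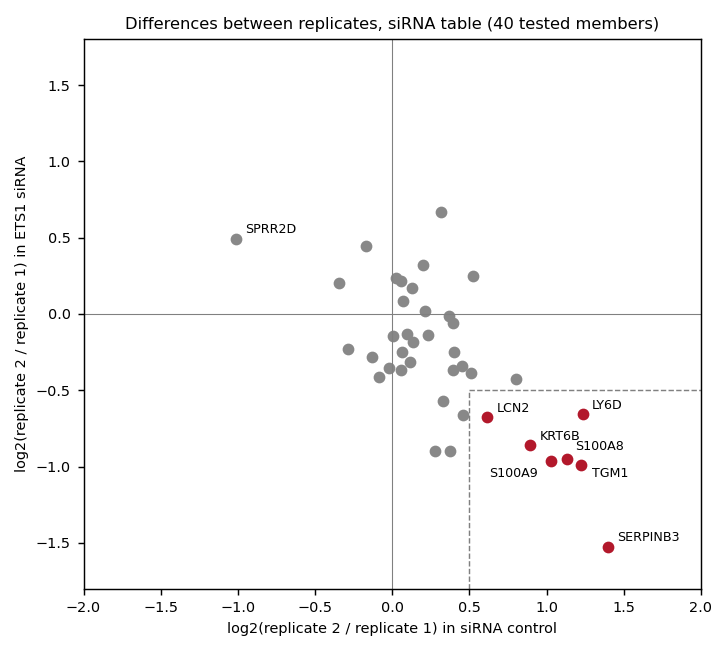
Log2 ratio of replicate 2 to replicate 1 in siRNA control (horizontal) and in ETS1 siRNA (vertical) for the 40 genes tested after siRNA, 1 point per gene. The dashed box holds the 7 genes, in red, that were at least 0.5 higher in replicate 2 of the control and at least 0.5 lower in replicate 2 of the knockdown.

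A wider list of 66 genes of epidermal differentiation gave the rest of the program. Of these, 30 had at most 3 counts in every library, among them 16 of 17 late cornified envelope (LCE) genes, and LOR, loricrin, the main late envelope protein, had 0. After siRNA 21 were tested, 0 were called higher and 2 lower, beside 1.13% and 2.27% of all genes tested. The 2 were NIPAL4, ichthyin, a lipid barrier gene (log2 fold change -0.83, SE 0.15, adjusted p 0.043), and KRT80, a keratin (log2 fold change -0.83, SE 0.19, adjusted p 0.093).

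After the hairpin 25 were tested, 11 called higher and 8 lower, beside 29.7% and 30.9% of all genes tested. KRT6C (log2 fold change 2.51, SE 0.21, adjusted p 1.8e-08), ABCA12, the lipid transporter of lamellar granules (2.22, SE 0.15, adjusted p 2.3e-09), and KRTDAP, a secreted keratinocyte protein (2.13, SE 0.14, adjusted p 8.1e-10), rose most. KRT6C had 29 and 28 counts in shCON and 137 and 171 in shETS1. Its value is uncertain, since 29.2% of the 50-base stretches of KRT6A and 44.4% of those of KRT6B also occur in it. SERPINB2 (-2.55, SE 0.42, adjusted p 5.9e-05), KRT80 (-1.71, SE 0.22, adjusted p 3.8e-06) and NIPAL4 (-1.24, SE 0.11, adjusted p 6.7e-08) fell most among genes with at least 30 counts in a library. NIPAL4 and KRT80 were thus called lower in both arms, with NIPAL4 at 21.9 and 22.3 CPM in siRNA control and 13.2 and 11.7 in ETS1 siRNA, and at 20 and 19.1 in shCON and 8.28 and 8.25 in shETS1.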

How the data were processed

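RNA of 8 SCC25 libraries was prepared with the TruSeq RNA kit and sequenced as single-end 50-base reads. Per the methods and processing notes, the authors mapped reads to GRCh37 with TopHat2 2.1.1 and Bowtie2 2.2.6 and counted them per Ensembl gene with featureCounts 1.5.0. The use of strand and of reads with several matches is not given in the sources used here, so that overlapping genes and near copies may share reads. The authors deposited raw counts by gene symbol, 1 table for each knockdown, with totals of 15954616 to 25953213 per library, and every per-sample column was used.

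Knockdown and control of an arm were fitted on their 4 libraries in edgeR 4.0.16 (R 4.3.3) with TMM factors, filterByExpr and no covariate, and tested by its two-sided quasi-likelihood F-test. A call needed an adjusted p under 0.1 (Benjamini-Hochberg over all genes tested). The standard error of a log2 fold change was taken from the change and its F statistic. The difference between the knockdowns was tested in 1 fit of all 8 libraries. CPM are relative to the TMM-scaled library size and were scaled within a table. Where both libraries of a group had at most 3 counts, 3 counts per library served as floor. Libraries are numbered as replicates in the labels, and p-values measure the spread between these libraries only. The chi-square per degree of freedom between replicates was 7.00 to 25.7, above sampling noise. The common dispersion was 0.0192 in the siRNA and 0.00402 in the shRNA libraries.

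The genes, their roles and the lists were chosen with earlier results of these data known. By rule, values in every library were given for each gene called after siRNA or in both arms and, in each role, for up to 2 called genes per direction with the largest change after the hairpin and at least 30 counts in both libraries of the higher group, 24 genes in all. Values of further genes of the list were added after they were seen. Of the wider list up to 3 genes per direction were named by the same count limit, and DSC1 and DSG4 for their position. Coordinates and exon lengths came from GENCODE v44 lifted to GRCh37. Shared sequence is the share of a gene's 50-base stretches found in the transcripts of another gene of the tables. Promoters came from RefSeq (GRCh38.p14). The tests were tried on simulated data with known changes. Alternatives were DESeq2 1.42.0, edgeR with DESeq2 size factors or with library size alone, no filter on counts or at least 10 in every library, 1 fit of all 8 libraries, a threshold of 0.05, a replicate block and leaving out each library. A crossed replicate block, added after the data were seen, is counted among the alternatives of each gene.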

Additional observations from a re-analysis of the deposited data

Results flagged for a closer look

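The change after the hairpin differed from the change after siRNA, by the interaction term of edgeR's quasi-likelihood test at an adjusted p under 0.1, in 21 of the genes with no group at the floor of 3 counts per library. All values are the hairpin log2 fold change minus the siRNA log2 fold change, with 2 libraries per group, and no explanation was tested.

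Among desmosomal genes the difference was 2.84 for DSG1, 1.07 for DSG3, 0.98 for PKP2, 0.72 for DSC2, 0.59 for DSC3 and -0.83 for PKP3. For envelope scaffold genes it was 1.76 in SCEL, 1.61 in SBSN, 0.68 in PPL and -0.69 in EVPL. DSG1, with 4 or 5 counts in each siRNA library, and SBSN, with 3 to 9, could not be tested after siRNA and entered the joint fit through their hairpin libraries, so that their differences are given as values only. That of SBSN was past the threshold in only 4 of 15 alternatives. Of the protease inhibitors SLPI differed by 1.60 and CSTA by 1.06, and of the keratins KRT16 differed by 1.78. Of the S100 genes S100A10 stood at -1.03 and S100A11 at -1.47. S100A7 was called higher, but it had a group at the floor and its value is not given. The enzymes TGM2 and ALOXE3 stood at 0.62 and -2.60, and SPRR1B at -1.54. LY6D was at 1.77, LCN2 at -2.12 and CRABP2 at -2.65.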

How the results depend on the processing

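With 2 libraries per group the siRNA arm was the less precise, and its calls moved most. Of 3 genes of the list called higher and 0 lower after siRNA, library size alone gave 1 and 1, no filter 9 and 2, at least 10 counts in every library 4 and 1, DESeq2 4 and 1, all 8 libraries in one fit 5 and 2, and an adjusted p under 0.05 gave 1 and 0. All genes called after siRNA, 502, became 1466 with no filter, 777 with DESeq2, 2166 with all 8 libraries in one fit and 190 at an adjusted p under 0.05. Library size alone called 522 of all genes, and at least 10 counts in every library 733. Leaving out 1 library gave 0 to 6 genes of the list higher, 0 to 2 lower and 72 to 1478 of all genes, lowest without siRNA control replicate 1 and highest without ETS1 siRNA replicate 1, and moved the list's median from 0.19 to between 0.020 and 0.38. TGM2, PKP3 and CRABP2 were all called with DESeq2, with its size factors, with no filter, with at least 10 counts and with all 8 libraries in one fit. The causes were not tested.

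The labels do not say what a replicate number shares, and same-numbered libraries deviated oppositely (Pearson's r across genes -0.54 in the siRNA arm, -0.20 in the shRNA arm). With the replicate block 0 genes of the list were called after siRNA and 97 of all genes. After the hairpin the block left 22 of the list called higher and 15 lower, beside 9173 of all genes called. A crossed pairing, added after seeing the data, called 13 higher and 3 lower after siRNA and 3238 of all genes. After the hairpin it called 24 and 18 of the list, beside 10923 of all genes.

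After the hairpin the 41 calls shared 31 to 41 genes with the calls of each alternative. Its median of 0.20 became 0.074 with library size alone, 0.049 with no filter and 0.053 with DESeq2, which was also run without the filter. It became 0.13 with all 8 libraries in one fit and 0.16 to 0.18 on leaving out 1 library. Interactions called lower, 9, ranged from 9 to 15 on leaving out 1 library.

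Reversals of direction came on leaving out 1 library and in genes that had not been called. After siRNA the values ranged from -0.021 to 0.63 for DSG3, -0.049 to 0.13 for S100A16, -0.19 to 0.54 for LCN2, -1.59 to 1.07 for SERPINB3 and -1.03 to 0.51 for SERPINB4. Interactions ranged from -0.82 to 0.53 for TGM1, -0.082 to 0.33 for DSG2, -2.12 to 0.49 for SERPINB3 and -1.33 to 0.22 for SERPINB4. For the 14 genes too low to test after siRNA and the 7 after the hairpin a change was not testable at this depth.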
